A study of Mus musculus with 24 samples.

Results

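The genes followed here, 10 in number, mark the endothelial cell, the cell that lines blood vessels, and were measured across the quadriceps muscle of 2 mouse strains. The members were chosen by name as well-known endothelial genes, namely Pecam1, Cdh5, Kdr, Flt1, Tek, Tie1, Vwf, Emcn, Eng and Egfl7, and 10 of 10 were present among the 14159 genes with a symbol in the deposited matrix. C57BL/6J (B6) mice, a standard inbred strain, and MRL/MpJ (MRL) mice, an inbred strain known for regenerating ear wounds and for a tendency to autoimmunity, were females of 6 to 8 weeks at surgery. Mice of either strain had intact muscle (uninjured) or a surgical defect of 3 mm by 3 mm in the quadriceps, a model of volumetric muscle loss, filled with saline (the control injury), with a powder of decellularized extracellular matrix from pig small intestine (ECM), or with polyethylene powder (PE). Whole quadriceps muscles were frozen 21 days after injury and sequenced as bulk RNA, with 3 libraries in each of the 8 groups and 24 libraries in all, so each library holds muscle fibres, vessels, infiltrating cells and, in the treated groups, the tissue around the material. In bulk muscle, fewer endothelial cells and less of an mRNA per endothelial cell cannot be told apart.

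Endothelial cells join each other through the adhesion proteins PECAM1 and VE-cadherin (Cdh5), and they read the growth factor VEGF through the receptors VEGFR2 (Kdr) and VEGFR1 (Flt1), of which the latter binds VEGF tightly but signals weakly. The angiopoietins act through the receptor TIE2 (Tek) with its partner TIE1, and endoglin (Eng) is a co-receptor for BMP9 and TGF-beta ligands. Endomucin (Emcn) is a surface glycoprotein of capillaries and veins, while von Willebrand factor (Vwf), stored in granules and released to catch platelets, and EGFL7 are secreted by the endothelium.

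The promoters of Kdr and Tek, which were called lower with PE than without injury in B6 mice, are shown beside that of Vwf, which was not called. Each is the stretch of 250 bases before the start of the gene's canonical transcript on GRCm39 (GENCODE vM39), written 5′ to 3′ on the strand of the gene, with capitals on GGAA or, on the other strand, TTCC, the core letters that ETS factors such as ERG and FLI1, known regulators of endothelial genes, bind.
Kdr promoter, chr5:76139119-76139368, minus strand: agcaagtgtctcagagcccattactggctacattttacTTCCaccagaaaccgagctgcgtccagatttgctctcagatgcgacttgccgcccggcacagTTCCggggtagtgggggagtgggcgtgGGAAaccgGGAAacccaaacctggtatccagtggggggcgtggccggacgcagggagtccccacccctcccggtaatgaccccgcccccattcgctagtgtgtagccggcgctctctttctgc
Tek promoter, chr4:94627041-94627290, plus strand: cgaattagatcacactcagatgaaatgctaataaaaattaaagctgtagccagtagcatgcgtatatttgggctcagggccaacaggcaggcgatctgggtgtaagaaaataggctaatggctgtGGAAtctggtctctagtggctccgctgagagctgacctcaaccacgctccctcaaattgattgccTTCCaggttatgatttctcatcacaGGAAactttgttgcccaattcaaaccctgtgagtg
Vwf promoter, chr6:125529661-125529910, plus strand: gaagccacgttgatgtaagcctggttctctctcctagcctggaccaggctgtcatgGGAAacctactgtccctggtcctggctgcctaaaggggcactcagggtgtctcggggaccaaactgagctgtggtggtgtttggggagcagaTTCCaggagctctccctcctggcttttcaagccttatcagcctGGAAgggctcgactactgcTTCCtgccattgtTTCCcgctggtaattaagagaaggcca
GGAA or TTCC was found in the promoters of 10 of the 10 members and of 93.9% of 21757 protein-coding genes, and the median number of matches was 3.5 in the members and 3 in all promoters. The longer AGGAAG, searched on both strands and containing the core, was in 4 of the 10 promoters (Flt1, Tie1, Vwf and Emcn) and in 28.9% of all promoters. CGGAAG, which also holds the core, was in the promoter of Tie1 and in 14.3% of all. The TATA box letters TATAAA were in that of Flt1 and in 11.9% of all. AGATAA, a form of the GATA factor site, was in none of the 10 and in 9.6% of all. Other forms were not counted, so this does not show that the 10 promoters lack GATA letters. On the other strand the Vwf promoter holds TGATAA and that of Cdh5 holds AGATAG. These are matches of letters in a window and not measured sites. The members lie on 7 chromosomes, apart from each other except for Kdr and Flt1, both on chromosome 5 (76093487 to 76139884 and 147498414 to 147662826), Tek and Tie1, both on chromosome 4 (94627291 to 94763224 and 118328385 to 118347261), and Eng and Egfl7, both on chromosome 2 (32535543 to 32574661 and 26468286 to 26486789). Exons of 4 members overlap those of another gene: Cdh5 and Tie1 each an antisense lncRNA (Gm64067 and Gm70435), Eng the opposite-strand gene Fpgs, and Egfl7 the same-strand gene Gm20532. The commands with which the authors counted reads set no strand option, so reads within the shared stretches cannot be assigned by strand. The length of these stretches was not measured.

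The authors deposited log2 CPM, the count of a gene relative to the size of its library after normalization, on a log2 scale. Levels are given here as CPM recovered from it or as mean log2 CPM ± SD over 3 libraries, and differences as log2 fold changes from limma with the standard error (SE), where -1 is a halving. A gene was called when its p-value, adjusted over all 14159 genes of the comparison by the Benjamini-Hochberg method (adjusted p), was under 0.05. Nothing in the labels ties the 3 libraries of a group to separate animals beyond their being separate samples, so p-values measure the spread between these samples. With 3 libraries on either side the smallest 2-sided exact permutation p is 0.10, so limma, which shares the spread across genes and groups, was used throughout.

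Every member was detected in every library, from 6.96 CPM (Emcn, 1 library of ECM-treated MRL mice) to 124 CPM (Cdh5, 1 library of uninjured B6 mice). The summed CPM of the 10 genes ranged from 352 in a library of PE-treated B6 mice to 671 in one of uninjured B6 mice. The deposited matrix holds only genes above 1 CPM in at least 3 libraries, and a level in whole muscle does not show which cells made the RNA. Muscle fibre markers summed to between 33534 and 217445 CPM, far above the sum of the 10 genes in every library. Replicate 2 of PE-treated MRL mice stood apart from its group (lowest correlation within a group, r = 0.812 across genes, against 0.904 or more in the other groups), with macrophage markers at 4513 CPM against 296 and 328 CPM in the other 2 libraries and muscle fibre markers at 33534 CPM against 131677 and 131827 CPM. Replicate 2 of PE-treated B6 mice held the most macrophage markers of its group (5459 CPM against 2948 and 1557 CPM) and the fewest muscle fibre markers (58078 CPM against 111422 and 124095 CPM).

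Levels of different genes were compared per kilobase of the canonical transcript. In uninjured B6 muscle Cdh5 (28.4 ± 2.7 CPM per kilobase, SD, n = 3) and Pecam1 (26.7 ± 1.1) led, followed by Egfl7 (21.3 ± 1.6), Kdr (17.1 ± 3.1), Eng (14.6 ± 1.1), Tie1 (14.0 ± 1.6), Flt1 (10.8 ± 2.1), Tek (8.16 ± 0.49), Vwf (5.13 ± 1.4) and Emcn (3.44 ± 0.3). Neighbours in this order whose libraries overlapped were Cdh5 and Pecam1, Kdr and Eng, Eng and Tie1, and Tie1 and Flt1. The junction genes thus stood above the receptors for growth factors. In PE-treated B6 muscle the order of the means changed to Egfl7 (18.4 ± 2.4 CPM per kilobase), Pecam1 (17.7 ± 3.7), Cdh5 (15 ± 3.6), Eng (10.4 ± 0.73), Vwf (9.02 ± 3.2), Tie1 (7.57 ± 1.9), Kdr (6.5 ± 0.9), Tek (4.03 ± 0.5), Flt1 (3.66 ± 0.57) and Emcn (3.34 ± 0.58), with the mean of Vwf above those of the 4 receptor tyrosine kinases.

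**Figure D1:**
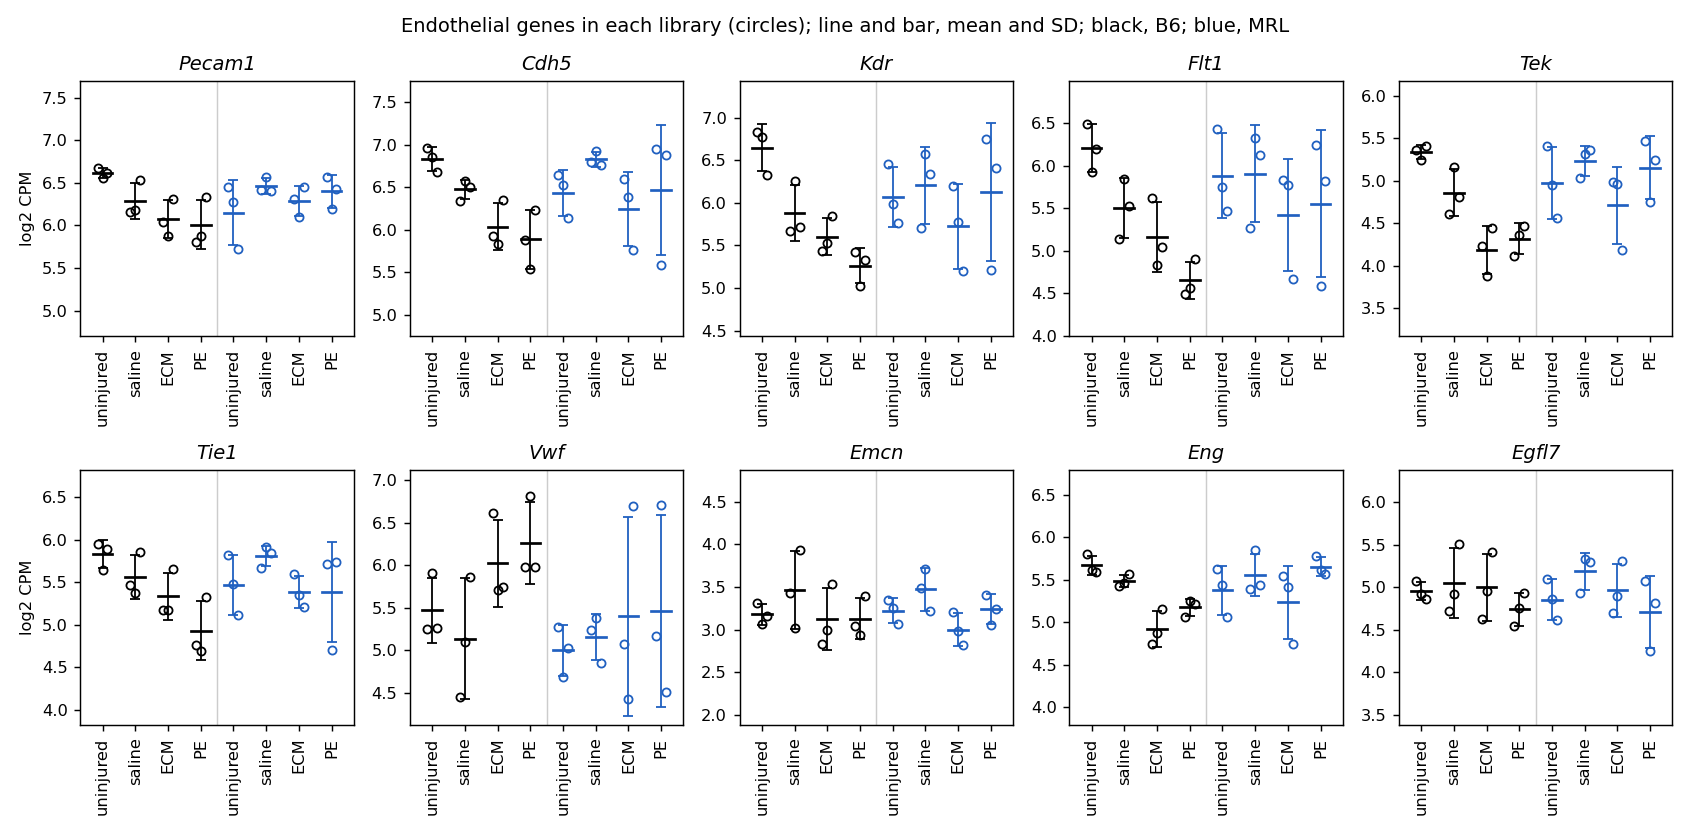
Level of each of the 10 endothelial genes (log2 CPM, y axis, 3 log2 units high in every panel) in the 4 treatments (x axis) of B6 mice (black) and MRL mice (blue). Circles are the 3 libraries of a group, the line and bar their mean and SD. Flt1 and Kdr step down from uninjured to PE-treated muscle in B6 mice, and the uninjured and PE-treated MRL groups overlap for every gene.

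The receptors of VEGF were lowest with PE in B6 mice. Flt1 stood at 90.03, 61.0 and 73.2 CPM in the 3 uninjured B6 libraries and at 22.5, 23.5 and 29.8 CPM in the 3 PE-treated ones, so the groups lay far apart. The difference for Flt1 was -1.55 on the log2 scale (SE 0.40, adjusted p = 0.0122), which is 0.34 of the uninjured level. Kdr stood at 114, 109 and 80.3 CPM in uninjured and at 42.9, 32.6 and 40.1 CPM in PE-treated B6 muscle. Every PE-treated library was below every uninjured one, and Kdr differed by -1.39 (SE 0.33, adjusted p = 0.00986).

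The receptors of the angiopoietin pathway fell too. Tek stood at 40.9, 37.7 and 42.5 CPM in uninjured and at 17.3, 20.6 and 22.1 CPM in PE-treated B6 muscle, a difference of -1.02 (SE 0.24, adjusted p = 0.00959). Tie1 stood at 62.0, 49.8 and 59.6 CPM and at 27.2, 25.8 and 40.1 CPM, a difference of -0.90 (SE 0.25, adjusted p = 0.0177). Neither pair of groups overlapped. Eng, the co-receptor, was at 55.6, 49.1 and 48.3 CPM without injury and at 33.3, 38.2 and 37.1 CPM with PE, which did not overlap but missed the threshold (-0.49, SE 0.19, adjusted p = 0.0602).

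Both junction genes fell in the same comparison. Cdh5 stood at 124, 116 and 102 CPM in uninjured and at 58.8, 46.3 and 75.2 CPM in PE-treated B6 muscle (-0.95, SE 0.29, adjusted p = 0.0257). Pecam1 stood at 102, 94.5 and 98.1 CPM and at 55.9, 58.7 and 80.7 CPM (-0.61, SE 0.19, adjusted p = 0.0253), the smallest of the called differences. Leukocytes and platelets also carry PECAM1, and the summed leukocyte markers rose from between 16.4 and 19 CPM in uninjured to between 224 and 802 CPM in PE-treated B6 muscle. Their part in the Pecam1 level was not tested.

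The remaining genes did not follow. Emcn was at 9.86, 8.29 and 8.88 CPM in uninjured and at 8.17, 7.60 and 10.5 CPM in PE-treated B6 muscle, groups that overlapped (-0.05, 95% interval -0.53 to 0.42, adjusted p = 0.878). Egfl7 was at 33.7, 30.3 and 29.1 CPM and at 23.3, 26.9 and 30.4 CPM, with overlap as well (-0.22, 95% interval -0.73 to 0.30, adjusted p = 0.519). Vwf went the other way, from 37.9, 60.1 and 38.2 CPM to 63.0, 113 and 63.3 CPM. No PE-treated library was below any uninjured one for Vwf, but the spread was wide and the difference of 0.79 (SE 0.53, 95% interval -0.32 to 1.90) was not called (adjusted p = 0.264).

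In all, 9 of the 10 members were lower with PE than without injury in B6 mice and 6 were called, all lower. Of all 14159 genes, 24.8% were called in this comparison, 10% of all lower and 14.7% of all higher. The groups did not overlap for 7 members that were lower, against 24.1% of all genes, and for 1 that was higher, against 27.0%. The median log2 fold change was -0.76 over the members and 0.02 over all genes. These counts depend on single libraries: without replicate 2 of PE-treated B6 mice 1 member (Tek, adjusted p = 0.0461) was called, with 3.76% of all genes, and without replicate 1 of PE-treated or of uninjured B6 mice 3 were (14.7% and 11.9% of all genes), while the fold changes of the 6 genes stayed between -0.51 and -1.69 in these and the other leave-one-out fits. When libraries were scaled to equal totals instead, the median of all genes moved to 0.43 and that of the members to -0.34, 2 members were called (Kdr and Flt1), and Emcn and Egfl7 were higher with PE (0.36 and 0.20).

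**Figure D2:**
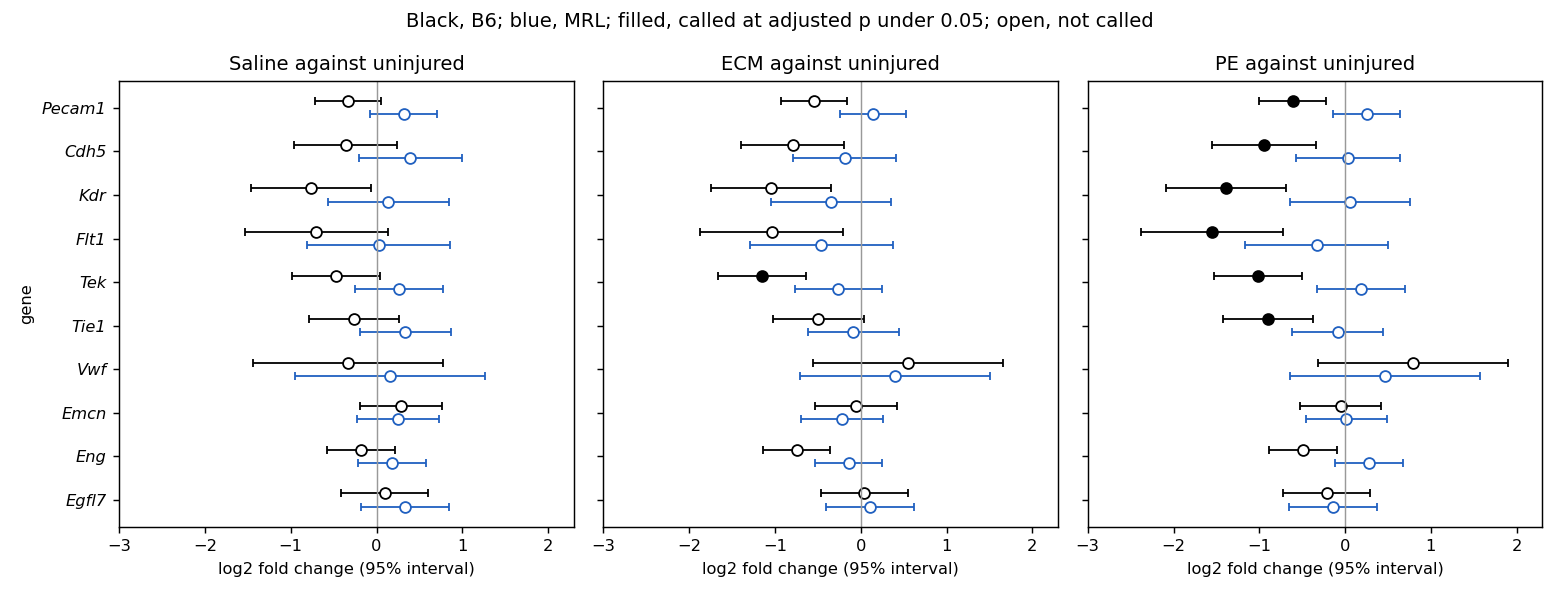
Log2 fold change against uninjured muscle of the same strain (x axis) for the 10 endothelial genes (y axis) in saline-treated, ECM-treated and PE-treated muscle, in B6 mice (black) and MRL mice (blue). Points are limma estimates, bars their 95% intervals and filled points called genes, of which there are 1 with ECM and 6 with PE, all in B6 mice.

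The other injuries showed smaller differences in B6 mice. With ECM, Tek was called at 18.6, 14.6 and 21.6 CPM against 40.9, 37.7 and 42.5 CPM (-1.16, SE 0.24, adjusted p = 0.0444), the only call among the 10 members where 0.226% of all genes were called lower. Kdr (-1.05, SE 0.33), Flt1 (-1.04, SE 0.40), Cdh5 (-0.79, SE 0.29), Eng (-0.75, SE 0.19) and Pecam1 (-0.54, SE 0.19) had unadjusted p-values under 0.05 and adjusted p-values between 0.0793 and 0.207. With Tek these made 6 of 10, and the same number of members did not overlap and were lower, against 14.6% of all genes. The median was -0.65 over the members and -0.01 over all genes. The call of Tek was lost whichever library of the 2 groups was left out (adjusted p between 0.0728 and 0.151), while its difference was between -1.004 and -1.28 in those fits.

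After the control injury no member and no gene (0%) was called in B6 mice, and 1 member (Kdr, -0.76, SE 0.33) and 1751 genes had an unadjusted p under 0.05. Kdr stood at 50.7, 76.6 and 52.6 CPM, below the uninjured libraries and above the PE-treated ones. The groups did not overlap for 6 members, all lower after the control injury, against 7.34% of all genes. The median over the members was -0.33. The means of Flt1 (46.3, 36.8 and 25.3 CPM with saline, ECM and PE) and Kdr (60.0, 48.8 and 38.5 CPM) went down in that order, while Tek was at 29.3, 18.3 and 19.95 CPM. These 3 comparisons share the uninjured libraries.

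Compared with the control injury rather than with uninjured muscle, no member was called with PE in B6 mice, where 5.97% of genes were, although 6 members did not overlap and were lower (11.1% of all genes) and Vwf did not overlap and was higher (18.7%). Tie1 (-0.64, SE 0.25) had the smallest adjusted p, 0.125, and 4 members had an unadjusted p under 0.05. Between ECM and the control injury no member was called (0.0283% of genes were), 2 had an unadjusted p under 0.05 (Tek at -0.68 and Eng at -0.57, SE 0.24 and 0.19) and the same 2 did not overlap and were lower, against 3.74% of all genes. Between PE and ECM no member was called and none had an unadjusted p under 0.05, with 0.226% of all genes called. Averaged over both strains, Tie1 differed by -0.53 between PE and saline (SE 0.18, adjusted p = 0.0379) as the only called member, against 24.2% of all genes called and 9.17% called lower. This call was lost without any 1 of 6 libraries, namely replicates 1 and 2 of PE-treated B6, 3 of saline-treated B6, 2 of PE-treated MRL and 2 and 3 of saline-treated MRL mice, while 4 members were called without replicate 1 and 2 without replicate 3 of PE-treated MRL mice, with 29.4% and 30.5% of all genes.

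In MRL mice no member was called in any comparison between treatments. The change from uninjured to PE-treated muscle ran from -0.33 (Flt1, 95% interval -1.16 to 0.50) to 0.46 (Vwf, 95% interval -0.65 to 1.57), with a median of 0.05 over the members and 0.07 over all genes, while 9.73% of all genes were called, 5.95% higher. These calls over all genes rested on single libraries and settings: 1 gene was left without replicate 2 of PE-treated MRL mice, none without replicate 1 or 3 of uninjured MRL mice, 9 with replicate numbers as a block, and none by limma with quantile normalization, with only the compared groups or without a trend in the prior variance. No member had an unadjusted p under 0.05. Flt1 stood at 86.6, 53.9 and 44.1 CPM in uninjured and at 75.9, 23.96 and 56.5 CPM in PE-treated MRL muscle. Kdr stood at 87.5, 63.3 and 54.4 CPM and at 108, 36.9 and 85.2 CPM, and Cdh5 at 99.7, 92.1 and 70.0 CPM and at 123, 47.8 and 117 CPM. In all 3 the second PE-treated library, which also held the most macrophage markers of its strain, was the lowest of the 6 and the other 2 were within or above the range of uninjured muscle. Tek was less spread, at 42.3, 30.7 and 23.5 CPM and at 44.0, 26.7 and 37.9 CPM. Without replicate 2 of PE-treated MRL mice the median over the members was 0.27, and without replicate 1 it was -0.14.

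After the control injury in MRL mice 10 of 10 members were higher than in uninjured muscle, by 0.02 (Flt1) to 0.39 (Cdh5). No member was called, no member had an unadjusted p under 0.05, and no gene of the 14159 (0%) was called (439 had an unadjusted p under 0.05). Cdh5 was the only one without overlap, against 5.97% of all genes. With ECM, 7 were lower and 3 higher than in uninjured MRL muscle, again with no call and no unadjusted p under 0.05 among the members, with a median of -0.17 and 0.0141% of all genes called. Between ECM and the control injury in MRL mice 9 of 10 were lower (median -0.45) and 4 did not overlap (Cdh5, Tek, Tie1 and Emcn), against 5.68% of all genes, but no member was called, where 0.00706% of all genes were, and only Tek had an unadjusted p under 0.05. PE gave no call against the control injury or against ECM in MRL mice, where no gene was called either. Eng was higher with PE than with ECM without overlap (0.42, SE 0.19, unadjusted p = 0.0374, adjusted p = 0.155), against 14.8% of all genes, and no other member had an unadjusted p under 0.05 in these 2 comparisons.

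Direct comparisons of the strains were made at each treatment. In uninjured muscle 9 of the 10 members were lower in MRL mice, with a median of -0.36, from -0.58 (Kdr, SE 0.33) to 0.04 (Emcn, SE 0.23). Pecam1 stood at 87.5, 77.3 and 52.6 CPM in MRL mice and at 102, 94.5 and 98.1 CPM in B6 mice, without overlap, with a difference of -0.47 (SE 0.19, adjusted p = 0.283) and the only unadjusted p under 0.05. No member was called, against 2.60% of all genes, and 2 members (Pecam1 and Cdh5) did not overlap and were lower, against 9.61%. After the control injury 10 of 10 were higher in MRL mice (median 0.21), with no call and no unadjusted p under 0.05 among the members. There 2.51% of all genes were called, and Cdh5 alone did not overlap, against 7.48% of all genes that were higher. With ECM 7 of 10 were higher (median 0.17), no member was called against 2.66% of all genes, and Tek had the only unadjusted p under 0.05 (0.53, SE 0.24, adjusted p = 0.353). With PE 8 of 10 were higher in MRL mice, with a median of 0.47.

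With PE, Tek stood at 44.0, 26.7 and 37.9 CPM in MRL mice and at 17.3, 20.6 and 22.1 CPM in B6 mice. The 3 MRL libraries were above the 3 B6 libraries, and the difference of 0.83 (SE 0.24) had an adjusted p of 0.0668. Eng also did not overlap (54.8, 49.0 and 47.5 CPM against 33.3, 38.2 and 37.1 CPM, difference 0.48, SE 0.19, adjusted p = 0.171), which made 2 members against 9.89% of all genes. Flt1 (0.90, SE 0.40) and Kdr (0.87, SE 0.33) differed by more on average, but their second MRL library lay within the B6 range. No member was called, 5 had an unadjusted p under 0.05, and 3.35% of all genes were called. Without replicate 2 of PE-treated MRL mice 6 members were called, among them Kdr at 1.32 (adjusted p = 0.00316), Cdh5 at 1.02 (adjusted p = 0.00334) and Tek at 1.04 (adjusted p = 0.00624), all higher in MRL mice, with Vwf lower, while 24.6% of all genes were called. Without both PE libraries numbered 2, an alternative chosen after the data were seen, 4 were called (Kdr, Tek, Cdh5 and Flt1), with 16% of all genes.

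Whether the change from uninjured muscle with PE differed between the strains was tested directly as an interaction, a comparison added after the data were seen. The change was more positive in MRL than in B6 mice for 9 of 10 members, by a median of 0.84 against -0.04 over all genes. It differed by 1.44 for Kdr (SE 0.47, 95% interval 0.45 to 2.43), 1.22 for Flt1 (SE 0.56), 1.20 for Tek (SE 0.35), 0.98 for Cdh5 (SE 0.41), 0.87 for Pecam1 (SE 0.26), 0.81 for Tie1 (SE 0.36) and 0.77 for Eng (SE 0.27). These 7 had unadjusted p-values between 0.00252 (Tek) and 0.0423 (Flt1), but adjusted p-values between 0.297 and 0.410, so none was called, and only 3 genes of all were (0.0212%). Without replicate 2 of PE-treated MRL mice 6 of the 7, all but Eng, were called, with 9.56% of all genes. Each interaction includes the uninjured libraries, where 9 of 10 members were lower in MRL mice without a call and which are shared with the other comparisons against uninjured muscle.

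The interaction was also positive for 9 of 10 members after the control injury (median 0.62) and for 8 of 10 with ECM (median 0.59, likewise added after the data were seen), with 2 and 3 members at an unadjusted p under 0.05 and no call among the members in either (0% and 0.00706% of all genes). Averaged over the 4 treatments, no member was called between the strains and 1 had an unadjusted p under 0.05. This was Tek (higher in MRL mice by 0.34, SE 0.12, adjusted p = 0.0645). Of all genes, 15.2% were called. Without replicate 2 of PE-treated MRL mice 3 members and 32.7% of all genes were called, and 1 member was without replicate 2 of saline-treated B6, replicate 3 of ECM-treated MRL or replicate 3 of uninjured MRL mice (21.1%, 17.0% and 12.3% of all genes).

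The members varied together across libraries, Emcn and Egfl7 less closely, with the exception of Vwf. Pearson's r between a gene and the mean of the other 9 over the 24 libraries was 0.868 for Tie1, 0.857 for Cdh5, 0.847 for Pecam1, 0.825 for Kdr, 0.824 for Tek, 0.785 for Flt1, 0.729 for Eng, 0.501 for Emcn and 0.480 for Egfl7. For Vwf it was -0.568. After subtracting each group's mean these values ranged from 0.574 to 0.821 for the other 9 and came to -0.444 for Vwf. The closest pairs were Cdh5 with Tie1 (r = 0.905), Cdh5 with Kdr (0.903) and the 2 VEGF receptors with each other (0.902). Among pairs without Vwf the lowest were Eng with Egfl7 (0.137) and Tek with Egfl7 (0.237). Libraries of a group share treatment and strain, and all values of a library share its normalization.

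Vwf was highest in 4 libraries that belong to 4 groups, at 113 CPM in replicate 2 of PE-treated B6, 104 CPM in replicate 2 of PE-treated MRL, 104 CPM in replicate 3 of ECM-treated MRL and 97.7 CPM in replicate 1 of ECM-treated B6 mice. The next was at 63.2 CPM and the lowest, replicate 2 of ECM-treated MRL mice, at 21.4 CPM. Libraries of 1 group could thus stand at both ends of the order. The SD of its log2 CPM was 1.17 in ECM-treated and 1.13 in PE-treated MRL mice against 0.27 and 0.30 in saline-treated and uninjured MRL mice. In these 4 libraries the mean of the 10 members, each centred on its own mean, was negative, between -0.23 and -0.37 on the log2 scale. Among genes of von Willebrand factor secretion and clotting, Rab27a, which helps dock its storage granules, had an r of 0.748 with Vwf, and Selp, a selectin of the same granules, had one of 0.665. The 5 genes most like Vwf were Ap1s3, Mettl6, Erp29, Ccdc34 and Nuf2 (r between 0.839 and 0.866), named after their values were seen.

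**Figure D3:**
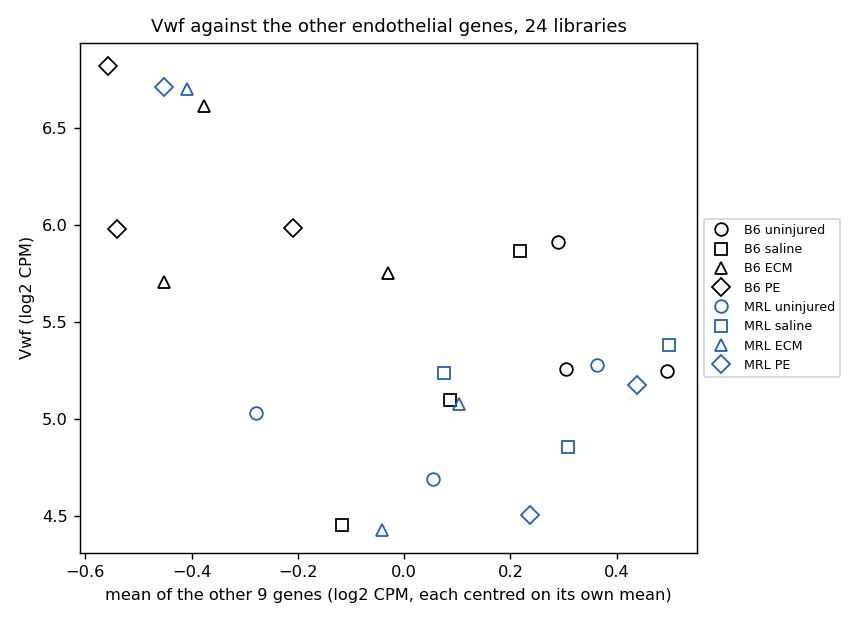
Vwf level (log2 CPM, y axis) against the mean of the other 9 endothelial genes (log2 CPM, each gene centred on its own mean, x axis) in the 24 libraries, with a colour per strain and a symbol per treatment. The 4 libraries with the most Vwf, between 97.7 and 113 CPM, lie at the upper left, with low levels of the other genes.

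The 10 genes outside the members whose log2 CPM was most like the mean of the members over the 24 libraries were Cyyr1 (r = 0.913), Eltd1 (0.911), She (0.895), Rapgef3 (0.893), Ptprb (0.892), Rasgrf2 (0.883), Podxl (0.875), Card10 (0.870), Shank3 (0.869) and Mmrn2 (0.859). Eltd1 is the older symbol of Adgrl4, an adhesion receptor of endothelial cells, Ptprb the endothelial phosphatase VE-PTP that acts on TIE2 and VE-cadherin, Podxl a sialomucin of the vessel surface, and Mmrn2 a matrix protein of the endothelium. All 10 kept an r of at least 0.753 within groups.

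Other genes of the vessel wall came from lists compiled with earlier results of these data known. Of 10 genes known from muscle capillaries, 6 were called lower with PE against uninjured B6 muscle and 0 higher, with a median of -1.51, where 10% of all genes were called lower and 14.7% higher. Car4, the carbonic anhydrase of the capillary surface, was lower (-2.86, SE 0.58, adjusted p = 0.00421), as were the water channel gene Aqp1 (-1.67, SE 0.30, adjusted p = 0.00259) and Timp4 (-2.02, SE 0.55, adjusted p = 0.0156). Car4 and Aqp1 were called in 6 of 6 leave-one-out fits and Timp4 in 3. Of 17 other receptors and signalling proteins, 4 were lower, among them Eltd1 (-1.23, SE 0.29), Ptprb (-1.10, SE 0.26) and Notch1 (-1.03, SE 0.34). Another 3 were higher, Nrp2 (1.46, SE 0.51), Cd93 (1.25, SE 0.33) and Plxnd1 (0.78, SE 0.24), which macrophages and other cells carry as well as endothelium. Of 11 junction and surface genes, Jam2 (-1.16, SE 0.20, adjusted p = 0.00216) and Podxl (-1.04, SE 0.31, adjusted p = 0.0221) were called, both lower, where 24.8% of all genes were called in either direction. Without replicate 2 of PE-treated B6 mice the calls of Eltd1, Ptprb, Notch1, Nrp2, Cd93, Plxnd1, Podxl and Timp4 were lost, and those of Car4, Aqp1 and Jam2 were kept (adjusted p = 0.0316, 0.0254 and 0.025).

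The ligands of these receptors were counted separately. Of 9 measured, 3 were called lower and 1 higher with PE than without injury in B6 mice. In that comparison 10% of all genes were called lower and 14.7% higher. Vegfa, the main VEGF (-1.53, SE 0.41, adjusted p = 0.0152), Vegfb, a ligand of VEGFR1 (-1.45, SE 0.38, adjusted p = 0.0142), and Angpt1, the activating ligand of TIE2 (-0.97, SE 0.33, adjusted p = 0.0381), were lower. Angpt4 was higher by 1.78 (SE 0.63, adjusted p = 0.0461). The calls of all 4 were lost without replicate 2 of PE-treated B6 mice. Averaged over both strains, PE against saline gave Angpt2, the angiopoietin released by activated endothelium, higher by 1.504 (SE 0.41, adjusted p = 0.0168), and Vegfa (-1.09, SE 0.29, adjusted p = 0.0148) and Vegfb (-0.86, SE 0.27, adjusted p = 0.029) lower, where 24.2% of all genes were called. All 3 calls were lost without replicate 2 of PE-treated B6 mice (adjusted p = 0.0615, 0.0554 and 0.0929), and that of Vegfb also without replicate 2 of saline-treated B6, 2 of PE-treated MRL and 2 or 3 of saline-treated MRL mice. In MRL mice the only ligand called between PE and uninjured muscle was Figf (the older symbol of Vegfd), higher by 0.95 (SE 0.29, adjusted p = 0.0474), a call kept in 2 of 6 leave-one-out fits and lost without replicate 2 of PE-treated MRL mice (1.04, adjusted p = 0.183). Muscle fibre genes were lower in the same PE-treated libraries, 9 of 9 below uninjured muscle in either strain with no call, and their part in the ligand levels was not tested.

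Of the other lists in PE-treated against uninjured B6 muscle, the endothelial nitric oxide synthase Nos3 (-1.26, SE 0.39), the hypoxia-response factor Epas1 (-1.39, SE 0.31), the arterial ligand Efnb2 (-0.64, SE 0.16) and Lrg1 (-1.14, SE 0.41) were lower. Icam1, an adhesion molecule of activated endothelium and of leukocytes, was higher (1.86, SE 0.44), as were the chemokine receptor Cxcr4 (2.79, SE 0.69), Lmo2 (1.40, SE 0.48), the protein C receptor Procr (1.98, SE 0.51) and Tfpi (1.66, SE 0.41). Among 13 transcription factors of endothelium Epas1 and Lmo2 were the only calls, where 24.8% of all genes were called. None of these 9 genes was called without replicate 2 of PE-treated B6 mice (adjusted p between 0.0525 and 0.198). In PE-treated MRL muscle every call against uninjured muscle among the receptor, venous, transcription factor, nitric oxide and Vwf-related lists was higher: Nrp2 (1.79, SE 0.51), Aplnr (1.03, SE 0.27), Plxnd1 (0.82, SE 0.24), Vcam1 (1.18, SE 0.35), Elk3 (0.82, SE 0.24), Edn1 (1.49, SE 0.40), Thbd (0.70, SE 0.21) and Tfpi (1.53, SE 0.41). These lists hold 17, 6, 13, 9 and 7 measured genes. Of all genes, 9.73% were called in this comparison, 5.95% higher. All 8 calls were lost without replicate 2 of PE-treated MRL mice (adjusted p between 0.182 and 0.241), where the differences of Nrp2, Plxnd1 and Elk3 were 1.01, 0.45 and 0.51, and likewise without replicate 1 or 3 of uninjured MRL mice, where no gene was called.

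**Figure D4:**
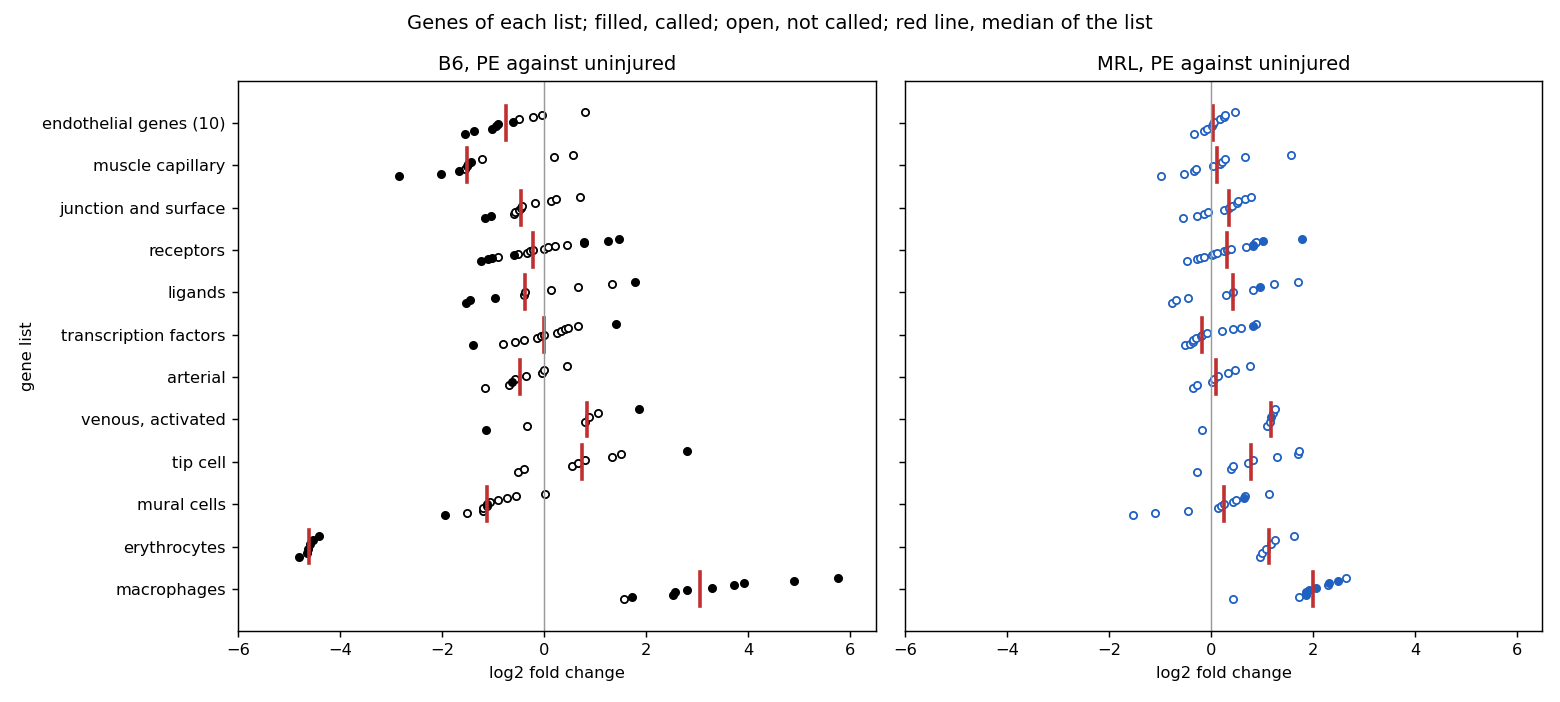
Log2 fold change of PE-treated against uninjured muscle (x axis) for the genes of 12 lists (y axis) in B6 mice (left, black) and MRL mice (right, blue). Points are genes, filled where called, and the red line is the median of a list, which in B6 mice is -0.76 for the 10 endothelial genes and -1.51 for the capillary list and in MRL mice 0.05 and 0.11.

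Markers of other cells moved with the endothelial genes. Of 6 erythrocyte genes, 6 were called lower with PE in B6 mice, also without replicate 2 of PE-treated B6 mice. With all libraries, 10% of all genes were called lower in that comparison. The summed CPM of the erythrocyte genes was between 1316 and 2905 in uninjured B6 muscle and between 180 and 1493 after the control injury. It was between 140 and 154 with ECM and between 70.3 and 118 with PE. In MRL mice the sums were between 400 and 2492 in uninjured and between 672 and 4128 in PE-treated muscle. None of the erythrocyte sums was at 0, and Hba-a1 and Hba-a2 are near-identical copies whose reads may have been split. Over the 24 libraries the erythrocyte sum had an r of 0.787 with the mean of the members (0.560 within groups). The part of blood content in the endothelial levels was not tested. Of 11 markers of pericytes and vascular smooth muscle, 10 were lower with PE in B6 mice. Only 2 were called, Myh11 (-1.95, SE 0.48) and Rgs5 (-1.13, SE 0.30), against 24.8% of all genes in either direction and 10% lower. Neither was called without replicate 2 of PE-treated B6 mice. The summed CPM of the 11 went from between 883 and 978 to between 373 and 577. It had an r of 0.752 with the mean of the members.

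Macrophage markers moved the other way. Of 10, 9 were called higher with PE in B6 mice, against 14.7% of all genes, and 7 without replicate 2 of PE-treated B6 mice. The sum of the 10 went from between 171 and 237 CPM to between 1557 and 5459 CPM. In MRL mice 6 of 10 were called higher, against 5.95% of all genes, and 0 without replicate 2 of PE-treated MRL mice, and the sums were between 111 and 275 CPM in uninjured muscle and 296, 4513 and 328 CPM in PE-treated muscle. Their r with the mean of the members was -0.595 (-0.454 within groups), while that of the muscle fibre sum was 0.258. Without the 2 libraries farthest from the median of each sum, these values were -0.508 and -0.095. In ECM-treated B6 muscle, where the members' median was -0.65, macrophage markers summed to between 331 and 1007 CPM, above every uninjured B6 library. None of the 10 macrophage markers was called in that comparison, where 0.226% of all genes were called lower. The share of all genes called higher is not given here. The part of these cells in the endothelial levels was not tested.

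**Figure D5:**
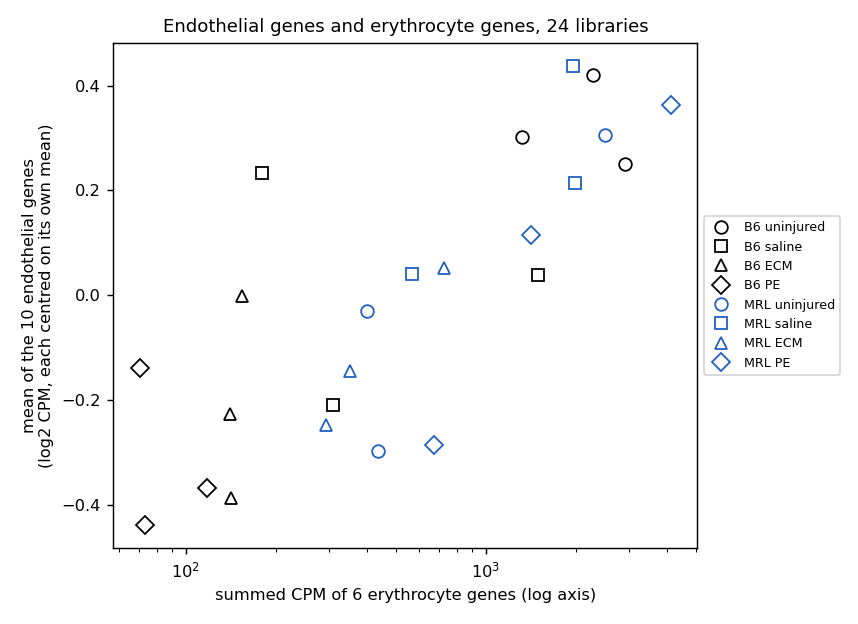
Mean of the 10 endothelial genes (log2 CPM, each gene centred on its own mean, y axis) against the summed CPM of 6 erythrocyte genes (x axis, log scale) in the 24 libraries, with a colour per strain and a symbol per treatment. The 6 libraries of ECM-treated and PE-treated B6 mice lie at the left, between 70.3 and 154 CPM.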

How the data were processed

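Bulk RNA of 24 quadriceps muscles was analysed from 1 table. The authors selected polyadenylated RNA, quantified reads with kallisto against the Ensembl GRCm39 cDNA, summed transcripts to genes with tximport (lengthScaledTPM), kept genes above 1 CPM in at least 3 libraries and normalized by the TMM method of edgeR. The values the authors deposited are log2 CPM with a prior count of 2. A single row of 14160 had no symbol and was not used. A count of 0 stands at -3.65 in the table, and together with the prior this gives a mean effective library of 25149678 reads, in which 3 counts, the limit that a count of 0 allows, are 0.119 CPM. CPM was recovered by removing the prior.

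Groups followed the titles of the samples. Limma 3.58.1 (R 4.3.3) was run on the log2 CPM of all 24 libraries with a mean for each group and a trend in the prior variance, and 2-sided p-values were adjusted over 14159 genes by Benjamini-Hochberg. The procedure was tested on simulated data. The members and gene lists were chosen with earlier results of these data known. Genes named as called from a list were among its 3 with the largest changes in either direction, and markers of other cells were given as counts and sums, and likeness was Pearson's r over 24 libraries. Positions, transcript lengths and promoters came from GRCm39 with GENCODE vM39. Whether equal replicate numbers pair the libraries was tested by correlating their deviations from the group means: in 1 of 16 pairs of groups (PE, between strains) all 3 correlations were over 0.1 (0.105, 0.532 and 0.439). Alternatives were log2(CPM + 1), a filter on genes under a mean log2 CPM of 1, equal totals, quantile normalization, library weights, a prior variance without a trend, a replicate block, only the compared groups, and each library left out. The fit without both PE libraries numbered 2 was added after seeing the data. Figures were drawn with matplotlib 3.10.9 in Python 3.11.15.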

Additional observations from a re-analysis of the deposited data

Results flagged for a closer look

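After the control injury the mean of Cdh5 was lower than in uninjured muscle in B6 mice and higher in MRL mice. All 3 saline-treated B6 libraries (81.0, 94.8 and 90.8 CPM) were below all 3 uninjured ones (124, 116 and 102 CPM), as for 7.34% of all genes. All 3 saline-treated MRL libraries (111, 122 and 108 CPM) were above all 3 uninjured ones (99.7, 92.1 and 70.0 CPM), as for 5.97% of all genes. Among the members, only Cdh5 had groups without overlap in both strains. By limma neither change was called. The B6 change was -0.36 (SE 0.29, unadjusted p = 0.229, adjusted p = 0.602), and the MRL change was 0.39 (SE 0.29, unadjusted p = 0.189). The difference between the strains in the change of Cdh5 was 0.75 on the log2 scale (SE 0.41, 95% interval -0.10 to 1.60). By limma's interaction test it had an unadjusted p of 0.0808 and an adjusted p of 1, so the opposite directions were not called.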

How the results depend on the processing

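The counts of called members were small and moved with the settings, while the fold changes of Flt1, Kdr, Tek, Tie1, Cdh5 and Pecam1 between PE-treated and uninjured B6 muscle stayed negative in every alternative run. In bulk muscle with 3 libraries per group, calls rested on single libraries, and the log2 CPM scale allowed no count model. Causes of the changes were not tested.

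The 6 members called between PE and uninjured B6 muscle became 2 with equal totals and between 1 and 6 when a library was left out (1 without PE replicate 2). The 1 called with ECM became 0 with the filter on low genes, with equal totals, with quantile normalization, with the replicate block and in all leave-one-out fits (0 to 0), 4 with only the compared groups or without both PE libraries numbered 2, and 7 with library weights. The 1 called with PE against saline over both strains became 0 with equal totals, with only the compared groups and without both PE libraries numbered 2, 3 with quantile normalization, 6 with weights and 0 to 4 with a library left out. No member was called between the strains with PE, but 1 was with quantile normalization, 4 without both PE libraries numbered 2, 9 with weights and 0 to 6 with a library left out (6 without MRL PE replicate 2). Averaged over treatments, 1 was called between the strains without both PE libraries numbered 2, 8 with weights, and 0 to 3 with a library left out. In MRL mice equal totals called 1 member between PE and uninjured muscle and 1 between PE and ECM. For the difference between strains in the change with PE from uninjured muscle the count was 3 without both PE libraries numbered 2, 7 with weights and 0 to 6 with a library left out.

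Library weights ranged from 0.057 to 56.3, and calls with them are given only as counts. They numbered 6 and 3 between strains with saline and ECM (41.8% and 17.0% of all genes), and, in B6 mice, 7 for saline against uninjured (33.8%), 2 for ECM against saline (15.7%), 10 for PE against saline (68.1%) and 3 for PE against ECM (39.4%). In MRL mice they numbered 2 for PE against ECM (16.3%). For differences between the strains in a change they numbered 6 for saline against uninjured (6.47%), 1 for ECM against saline (3.28%) and 4 for PE against saline (30.5%), and over both strains 3 for ECM against saline (6.96%). In the comparisons of the paragraph above, weights called between 19.0% and 56.9% of all genes.

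With the replicate block 0 members were called between the strains with PE (0 without it) and 6 between PE and uninjured B6 muscle. The former was the 1 comparison in which all 3 correlations of equal replicate numbers were over 0.1. The labels do not say that these numbers mark a pair. The block changed no count but that for ECM in B6 mice.

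Emcn, Egfl7 and Vwf changed sign. Emcn went from -0.05 to 0.36 with equal totals and 0.041 without both PE libraries numbered 2 for PE against uninjured in B6 mice (-0.19 to 0.041 with a library left out), and Egfl7 from -0.22 to 0.20 with equal totals. Between strains with PE, Emcn became -0.0007 with equal totals, and Egfl7 0.35 with weights and 0.21 without both PE libraries numbered 2 (-0.21 to 0.20 with a library left out). In the difference between strains for PE against uninjured, leaving out a library gave -0.95 to 0.15 for Vwf, -0.025 to 0.20 for Emcn and -0.11 to 0.30 for Egfl7.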

Other observations

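Lymphatic and platelet genes were not part of the comparisons above. Pdpn, a marker of lymphatic endothelium that fibroblasts and macrophages also carry, was higher with PE than without injury in B6 mice by 2.84 (SE 0.60, adjusted p = 0.00504). It was the only call among 7 lymphatic markers, in a comparison where 24.8% of all genes were called, 14.7% higher. Of 5 measured platelet markers 2 were called higher there, Treml1 (2.52, SE 0.89, adjusted p = 0.0461) and Pf4 (1.69, SE 0.55, adjusted p = 0.0326), which macrophages also express, and Pf4 was higher with PE in MRL mice as well (1.88, SE 0.55, adjusted p = 0.0466). Pdpn was still called without replicate 2 of PE-treated B6 mice (adjusted p = 0.0452) and Treml1 and Pf4 were not (0.188 and 0.189). The call of Pf4 in MRL mice was lost without replicate 2 of PE-treated MRL mice (1.34, adjusted p = 0.224) and without replicate 1 or 3 of uninjured MRL mice. Treml1 was near the detection limit in uninjured B6 muscle (mean log2 CPM of -3.02).

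Averaged over the 4 treatments, 2 capillary genes were higher in MRL than in B6 mice, Car4 by 0.95 (SE 0.29, adjusted p = 0.033) and Aqp1 by 0.57 (SE 0.15, adjusted p = 0.0152). Epas1 (0.59, SE 0.16), the endothelin-converting enzyme Ece1 (0.72, SE 0.18), the endothelin receptor Ednrb (0.71, SE 0.22), Hey1 (0.49, SE 0.15) and Fbln5 (0.60, SE 0.19) were higher as well, and the apelin receptor Aplnr was lower (-0.43, SE 0.14, adjusted p = 0.0401), where 15.2% of all genes were called. Of 24 leave-one-out fits Aqp1, Epas1 and Ece1 were called in 24, Hey1 in 19, Ednrb in 12, Aplnr in 11 and Car4 and Fbln5 in 10. With PE alone Car4 (2.35, SE 0.58, adjusted p = 0.0287), Lrg1 (1.76, SE 0.41, adjusted p = 0.0184) and Ednrb (1.61, SE 0.44, adjusted p = 0.0485) were called between the strains, all higher in MRL mice. In that comparison 3.35% of all genes were called. Car4 was called in 1 of 6 leave-one-out fits, that without replicate 2 of PE-treated MRL mice (adjusted p up to 0.222 in the others), Lrg1 in 3 and Ednrb in 2, and both were lost without replicate 1 of PE-treated B6 and replicates 1 and 3 of PE-treated MRL mice, Ednrb also without replicate 3 of PE-treated B6 mice. Edn1, the gene of endothelin, was the only gene of the endothelial lists called between the uninjured strains, with a difference of -1.95 in MRL mice (SE 0.40, adjusted p = 0.00765, and 0.0715 without replicate 3 of uninjured MRL mice). Its mean log2 CPM was low, at -0.24 in uninjured MRL and 1.71 in uninjured B6 mice. Of all genes, 2.60% were called between the uninjured strains.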
